A study of Mus musculus with 11 samples.

Results

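ATAC-seq peaks were examined at the 4 mouse loci that encode the Runx transcription factors and their partner, *Runx1*, *Runx2*, *Runx3* and *Cbfb*. A locus was the gene body in the mm10 genome extended by 20 kb on each side, and every peak of the 9 ATAC-seq libraries that overlapped it by at least 1 bp was a member. This gave 213 of the 298164 peaks in the series. Peaks were joined across libraries into 1 interval wherever they overlapped by 1 bp or more, and the 4 loci held 59 of 71400, with 21 at *Runx1*, 17 at *Runx2*, 19 at *Runx3* and 2 at *Cbfb*. ATAC-seq marks open chromatin through a transposase that cuts and tags it. Libraries were made from sorted C57BL/6 cells of 2 organs. Thymus gave CD4SP, the CD4 single positive thymocytes (2 libraries), and NKT, the natural killer T cells isolated with CD1d tetramer (2 libraries). Bone marrow gave CLP, the common lymphoid progenitors (3 libraries), and ILCP, the precursors of innate lymphoid cells (2 libraries). No treatment was given and the mice were 4 to 8 weeks old. ILCP were sorted as eGFP+ cells, and *Zbtb16*-IRESGFPcre is the reporter line in the study's methods, whereas the labels give no allele for any group. The study compared NKT with CD4SP and ILCP with CLP, since NKT and ILCP express the factor PLZF and the other types do not.

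Runx proteins bind DNA through the Runt domain, and each pairs with CBFβ, the product of *Cbfb*, which does not touch DNA itself and raises the affinity of its partner. *Runx1* is required for definitive blood formation and for T cell development, *Runx3* silences *Cd4* in cytotoxic T cells and acts in innate lymphoid cells, and *Runx2* is best known as the master regulator of bone formation. All 3 Runx genes are transcribed from a distal promoter (P1) and a proximal promoter (P2), which give proteins with different first residues.

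The libraries held between 19343 and 41535 peaks. CLP replicate 1 stood apart with 19343, against 41535 and 40136 in the other CLP libraries, and ILCP held 26328 and 25771. At the 4 loci, the 9 intervals with a peak in CLP replicate 1 all had one in CLP replicates 2 and 3, which shared 24. The peak lists do not give the depth of each library, so where no peak is listed, accessibility may still have been present below what could be called. Start sites of 5 T cell markers (*Cd3e*, *Cd3d*, *Cd5*, *Cd4* and *Bcl11b*) had a peak in 5 of 5 cases in every thymic library, in 1, 3 and 2 in CLP and in 2 and 1 in ILCP, where *Cd3e* and *Cd4* had none. Of *Flt3*, *Dntt* and *Rag1*, which mark CLP, 2, 3 and 3 had a peak in the CLP libraries, 1 in each ILCP library (*Flt3*) and 0 in the thymus. Among 3 NKT markers, *Zbtb16* had a peak in both NKT and neither CD4SP library, *Il2rb* in all 4, and *Tbx21* in NKT replicate 2 alone. The 4 ILCP markers *Zbtb16*, *Id2*, *Gata3* and *Tox* numbered 3 or 4 in every library, so they did not set ILCP apart. Of the B cell markers, *Pax5* had a peak in 5 libraries and *Cd79a* in 0. Of 4 myeloid markers, *Mpo* had one in CLP replicate 2 and *Csf1r* in CLP replicate 3. Of 2 erythroid markers, *Gata1* had one in both CD4SP libraries and NKT replicate 2. The part of other cell types in the results was not tested.

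*Runx1* held more called peaks in every thymic library than in any marrow library, while at *Runx2* and *Runx3* thymic and CLP libraries overlapped. *Runx1* had a peak in every CD4SP library at 12 of its 21 intervals, in every NKT library at 13, in every CLP library at 3 and in both ILCP libraries at 1. For *Runx2* these numbers were 6, 7, 2 and 2 of 17, and for *Runx3* 6, 3, 2 and 1 of 19, while both *Cbfb* intervals had a peak in all 9 libraries. Over all 71400 intervals the shares were 41.5% for CD4SP, 42.0% for NKT, 25.5% for CLP and 29.4% for ILCP. Counting any library of a type, *Runx1* had 13, 15, 11 and 5 intervals in CD4SP, NKT, CLP and ILCP, *Runx2* 10, 11, 9 and 5, and *Runx3* 12, 12, 7 and 3. Peaks in all 9 libraries lay at 0 intervals of *Runx1*, 2 of *Runx2*, 1 of *Runx3* and 2 of *Cbfb*, and at 13.3% of all intervals. Organ and cell type cannot be told apart between thymus and marrow. Nor can fewer cells with an open site be told apart from a less open site in each cell.

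**Figure D1:**
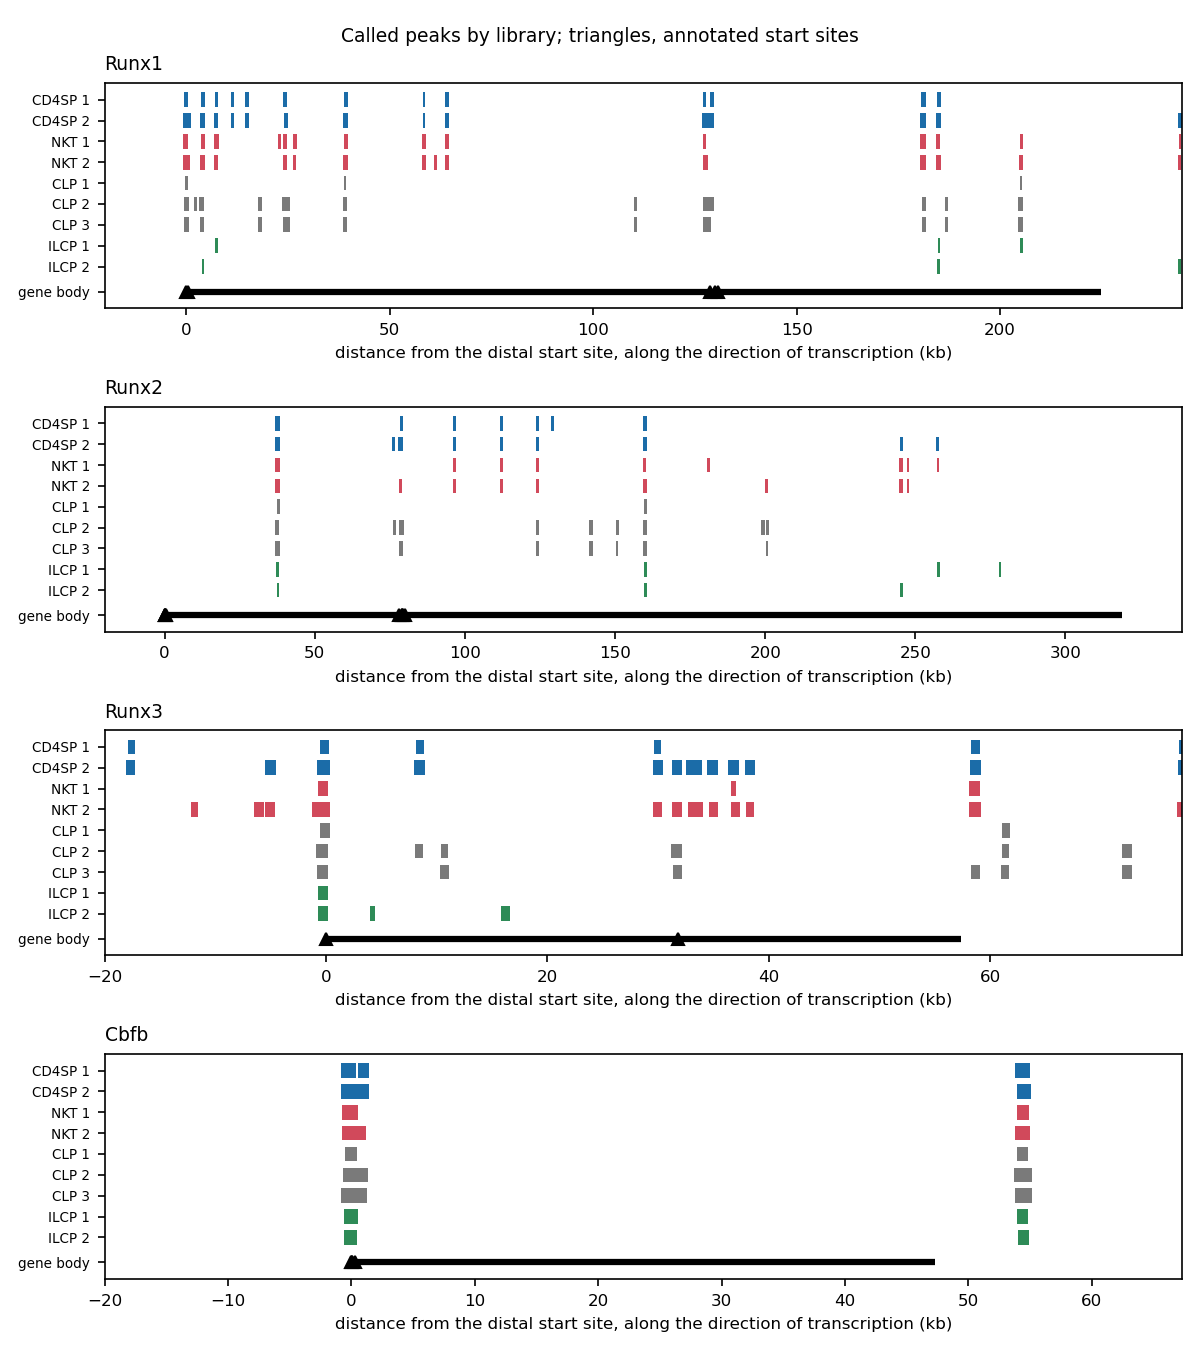
Each bar is a called peak, with 1 row per library (CD4SP blue, NKT red, CLP grey, ILCP green) and the distance from the distal start site in kb along the direction of transcription on the horizontal axis. The black line is the gene body and triangles are annotated start sites. *Runx1* rows hold 13 or 14 peaks in thymocytes and 3 in each ILCP library, and *Cbfb* shows the same 2 sites in every row.

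The loci differ in size. *Runx1* (ENSMUSG00000022952.17) lies on the minus strand at chr16:92601466-92826149 and spans 224.7 kb, *Runx2* (ENSMUSG00000039153.16) on the minus strand at chr17:44495987-44814797 over 318.8 kb, *Runx3* (ENSMUSG00000070691.10) on the plus strand at chr4:135120652-135177990 over 57.34 kb, and *Cbfb* (ENSMUSG00000031885.14) on the plus strand at chr8:105170674-105217989 over 47.32 kb, in GENCODE M21. Per 100 kb of locus, *Runx3* held 19.52 intervals, *Runx1* 7.934, *Runx2* 4.738 and *Cbfb* 2.291. Most members were intronic, with 17 of 21 at *Runx1*, 16 of 17 at *Runx2* and 8 of 19 at *Runx3*.

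The promoters that the results turn on are shown as the 250 bp ahead of the outermost start site, on the strand of the gene, in mm10. They set the *Runx1* distal promoter, which had no peak in ILCP, beside those of *Runx3* and *Cbfb*, which had a peak in every library. Capitals mark the Runx consensus, TGTGGT or TGCGGT on either strand.
Runx1 distal promoter, chr16:92826150-92826399, minus strand: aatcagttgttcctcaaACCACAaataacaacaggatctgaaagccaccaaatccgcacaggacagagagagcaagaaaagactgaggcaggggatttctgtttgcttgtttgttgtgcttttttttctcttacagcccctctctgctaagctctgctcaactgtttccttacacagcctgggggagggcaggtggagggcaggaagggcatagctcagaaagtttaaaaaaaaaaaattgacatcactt
Runx3 distal promoter, chr4:135120402-135120651, plus strand: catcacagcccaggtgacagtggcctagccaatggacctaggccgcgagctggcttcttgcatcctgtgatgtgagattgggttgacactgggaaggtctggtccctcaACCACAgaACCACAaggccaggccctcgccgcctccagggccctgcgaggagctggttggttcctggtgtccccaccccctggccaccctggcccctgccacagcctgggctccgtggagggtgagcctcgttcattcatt
Cbfb promoter, chr8:105170424-105170673, plus strand: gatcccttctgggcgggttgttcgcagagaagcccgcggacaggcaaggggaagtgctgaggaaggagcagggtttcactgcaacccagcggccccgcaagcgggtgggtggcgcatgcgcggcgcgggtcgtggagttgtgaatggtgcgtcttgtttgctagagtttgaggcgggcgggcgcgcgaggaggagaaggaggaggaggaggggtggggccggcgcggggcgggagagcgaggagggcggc
The *Runx1* window holds 1 consensus site and 1 CpG at 44.8% GC. The *Runx3* window holds 2 consensus sites set 2 bases apart, 7 CpG and 63.6% GC, and the *Cbfb* window no site, 25 CpG and 69.2% GC. At least 1 consensus site was found in the same window of 17.8% of 21829 protein-coding genes. A match is a stretch of letters and not a measured binding site.

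At the distal start site of *Runx1* a peak was called in all 4 thymic and all 3 CLP libraries and in neither ILCP library. Peaks are placed here by their rank within a library, where rank 1 has the highest peak caller score. The interval (chr16:92825004-92826864) ranked 8694 and 6267 in CD4SP, 7752 and 8096 in NKT and 11362, 14457 and 14790 in CLP. As shares of their lists, the CLP peaks lay in the upper 58.74%, 34.81% and 36.85%. Whether the shorter ILCP lists had a part in the missing peak was not tested. Ranks were compared as a rank score, log2 of 41536 over the rank. It was set to 0 where no peak was called, so an uncalled peak counts as a value. The weakest peaks of a short list score higher than those of a long list, and ILCP minus CLP carries this. A peak at 99.59% of the ILCP replicate 2 list scored 0.69, and one at 99.91% of the CLP replicate 2 list scored 0.0. A type with no peak in any library has a spread of 0 by construction, which lowers the SE. At the distal start the mean score was 2.49 ± 0.33 (SD, n = 2) in CD4SP, 2.39 ± 0.04 in NKT (n = 2), 1.63 ± 0.21 in CLP (n = 3) and 0 in ILCP. ILCP were lower than CLP by 1.63 (SE 0.21, adjusted p = 0.00111, limma over 58536 intervals), and NKT differed from CD4SP by -0.10 (SE 0.23, adjusted p = 1). The call for ILCP was kept in 13 of 17 alternative settings, with adjusted p from 0.000684 to 0.374, and was lost in 4. The difference was -0.53 with an equal number of peaks from every library (adjusted p = 0.108) and -0.34 with the upper 50% of each list (0.374). In these settings, here and below, the score is taken over a shorter list length. Every kept peak then scores lower while no peak stays at 0, so the sizes cannot be set beside those with all peaks. When a peak had to cover 50% of the interval, the difference shrank to -1.0 (0.216). On the log2 score it was -1.71 with adjusted p = 0.0629.

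The proximal start of *Runx1* lies 128.8 kb into the gene. Its interval (chr16:92696388-92699263) ranked 22126 and 11910 in CD4SP, 28026 and 17559 in NKT, and 13429 and 15332 in CLP replicates 2 and 3. CLP replicate 1 and both ILCP libraries had no peak there. The start site itself was covered in 4 libraries, both CD4SP and CLP replicates 2 and 3, so the NKT peaks lay beside it. ILCP minus CLP was -1.02 (SE 0.53, adjusted p = 0.235), and -1.53 (adjusted p = 0.0187) without CLP replicate 1, the library with the short list.

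**Figure D2:**
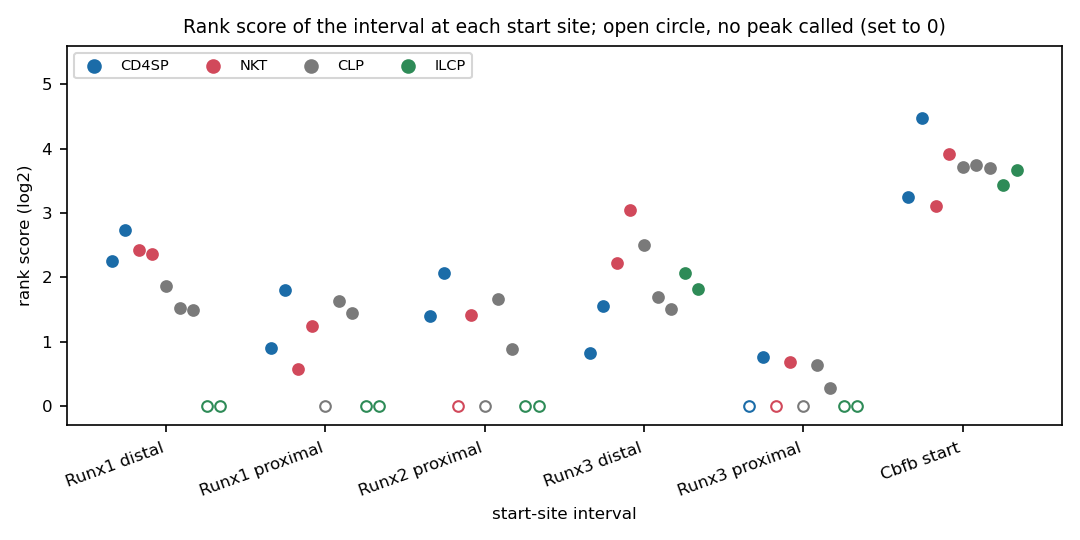
Rank score (vertical axis, log2) of the interval over each start site that had a peak, with 1 point per library coloured by cell type and open circles at 0 for no called peak. Both ILCP points are open at *Runx1* distal, *Runx1* proximal, *Runx2* proximal and *Runx3* proximal, and filled at *Runx3* distal and *Cbfb*.

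Beyond its start sites, 2 *Runx1* introns passed the test between ILCP and CLP, and 3 more had peaks in both libraries of 1 thymic type and in no other library. The central 200 bp of the first pair, and of the intron with the largest difference among the other three, are shown on the plus strand of mm10.
Runx1 intron at 184.9 kb, chr16:92641180-92641379: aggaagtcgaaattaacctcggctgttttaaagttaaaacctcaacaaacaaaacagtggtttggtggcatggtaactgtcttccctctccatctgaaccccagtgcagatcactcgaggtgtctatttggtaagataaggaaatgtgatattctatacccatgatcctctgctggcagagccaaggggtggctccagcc
Runx1 intron at 39.18 kb, chr16:92786866-92787065: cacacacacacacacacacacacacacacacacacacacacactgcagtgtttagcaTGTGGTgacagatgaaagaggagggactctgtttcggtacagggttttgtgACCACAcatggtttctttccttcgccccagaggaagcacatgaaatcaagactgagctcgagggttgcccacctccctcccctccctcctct
Runx1 intron at 11.41 kb, chr16:92814642-92814841: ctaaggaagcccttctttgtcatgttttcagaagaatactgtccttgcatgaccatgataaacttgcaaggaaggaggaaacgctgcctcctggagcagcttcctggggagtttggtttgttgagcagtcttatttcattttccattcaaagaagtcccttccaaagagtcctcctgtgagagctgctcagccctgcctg
The site at 39.18 kb holds 2 consensus sites and the other two hold none.

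The intron site at 184.9 kb (chr16:92640708-92641851) had a peak in ILCP and in all thymic libraries and in none of the 3 CLP libraries. It ranked 20430 and 11528 in CD4SP, 7148 and 8541 in NKT and 20255 and 12948 in ILCP. ILCP scored 1.36 ± 0.46 (SD, n = 2) and were higher than CLP by 1.36 (SE 0.29, adjusted p = 0.0136, limma). It was the 1 interval of the 4 loci higher in ILCP. NKT minus CD4SP was 0.97 (SE 0.32, adjusted p = 0.139), which did not pass. The marrow call was kept in 12 of 17 alternatives (adjusted p 0.00763 to 1). The difference was 0.29 with an equal number of peaks (adjusted p = 0.529), 0.0 with the upper 50% (1), 0.73 on the log2 score (0.303) and 1.04 without ILCP replicate 2 (0.12), and on percentile ranks the adjusted p was 0.0833.

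The site at 39.18 kb (chr16:92786230-92787701) had the reverse marrow pattern. It ranked 15926 and 14193 in CD4SP, 19910 and 11734 in NKT and 16958, 23637 and 17656 in CLP, with no peak in ILCP. ILCP were lower by 1.11 (SE 0.26, adjusted p = 0.0198), and NKT minus CD4SP was -0.02 (SE 0.29, adjusted p = 1). The marrow call was kept in 8 of 17 alternatives (adjusted p 0.00769 to 1) and was lost in 9. The difference was -0.11 with an equal number of peaks (adjusted p = 0.878) and -0.08 with the upper 50% (adjusted p = 1), where kept peaks score lower by construction. It was -0.68 (0.28) when a peak had to cover 50% of the interval. The difference kept its size but missed the threshold with the replicate block (-1.05, 0.104) and without CLP replicate 3 (-1.05, 0.0576). Without either ILCP library, which leaves 1, it was -1.11. On the log2 score, a different unit, it was -1.09 (0.24). On percentile ranks the adjusted p was 0.168.

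At *Runx1*, 2 of 21 intervals (9.52%) had a peak in both CD4SP and neither NKT library, against 3.46% of all intervals. The reverse held at 2 (9.52%), against 4.3%. Close to the distal promoter, 2 intron sites were called in CD4SP alone. The site at 11.41 kb (chr16:92814277-92815206) ranked 21308 of 33648 and 26071 of 37909 peaks in the CD4SP libraries, and the site at 15.04 kb (chr16:92810629-92811600) ranked 22008 and 27580. No NKT, CLP or ILCP library had a peak at either. NKT minus CD4SP was -0.82 and -0.75. Both entered the test only through the type in which they were called, so these differences are given as a description with no p. A site at 26.76 kb (chr16:92798968-92799813) had the opposite pattern, with ranks 26654 and 33966 in NKT and no other peak, and a difference of 0.47, to which the same applies. All 3 lie in the weaker part of their lists, and none of the 3 is left to test when only the strongest peaks are kept.

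Other *Runx1* introns had peaks in NKT and CLP libraries with few or none in ILCP. At 24.64 kb (chr16:92800551-92802459) the ranks were 9317 and 9378 in CD4SP, 7864 and 9014 in NKT, and 8025 and 9730 in CLP replicates 2 and 3, with none in CLP replicate 1 or ILCP. CLP replicate 1 sets this comparison, for ILCP minus CLP was -1.49 (SE 0.65, adjusted p = 0.19) with it and -2.23 (SE 0.15, adjusted p = 0.000151) without it. Both ILCP values are 0 for lack of a peak, so their spread was not measured, and the SE and p rest on that. At 3.998 kb (chr16:92821446-92822857) thymic ranks ran from 6606 to 8641, and the site had weaker peaks in CLP replicates 2 and 3 (20864 and 21284) and ILCP replicate 2 (24114). At 205.1 kb (chr16:92620451-92621696) NKT ranked 16324 and 21135, CLP 17432, 14588 and 15518 and ILCP replicate 1 19212, with no peak in CD4SP or ILCP replicate 2. Neither difference passed there (NKT minus CD4SP 1.16, SE 0.35, adjusted p = 0.102, and ILCP minus CLP -0.84, SE 0.32, adjusted p = 0.129). The 2 opposite differences differed from each other by 2.0 (SE 0.47, adjusted p = 0.0223).

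**Figure D3:**
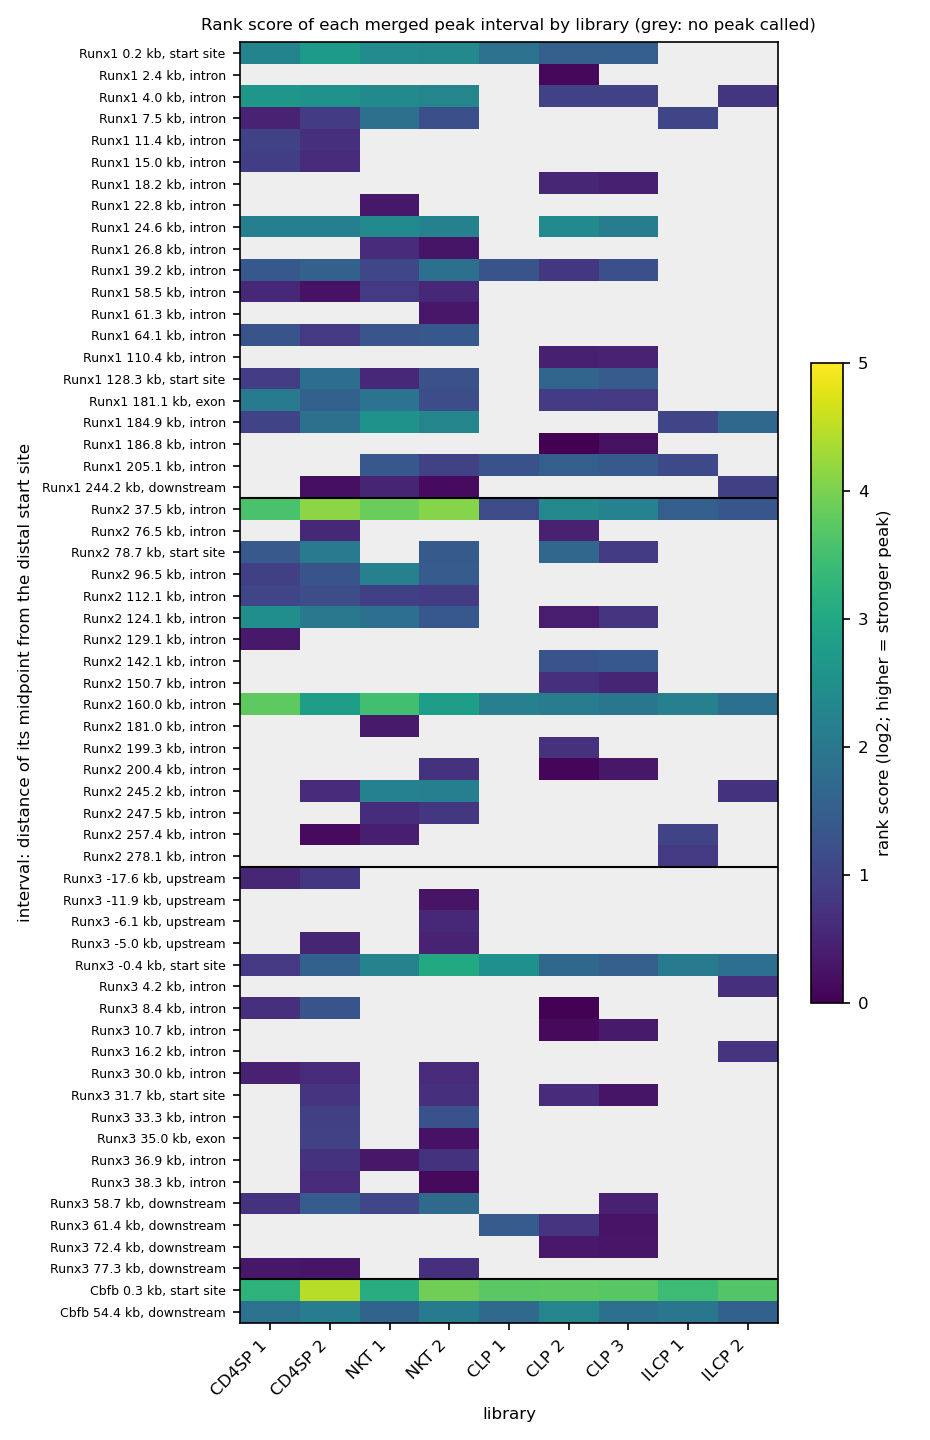
Rank score (colour, log2) of the 59 intervals (rows, with the distance of the midpoint from the distal start site) in the 9 libraries (columns), grey where no peak was called. Rows filled from end to end are 2 of *Runx2*, 1 of *Runx3* and 2 of *Cbfb*, and the ILCP columns are mostly grey at the Runx genes.

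*Runx2* had no peak at its distal start site in any library, nor within 250 bp of the 4 start sites annotated there. Its proximal promoter interval (chr17:44735192-44736933, 78.73 kb in), which also holds the start of the antisense gene *Runx2os1*, ranked 15688 and 9980 in CD4SP, 15544 in NKT replicate 2 and 13187 and 22430 in CLP replicates 2 and 3. NKT replicate 1, CLP replicate 1 and ILCP had no peak there. Neither difference passed (NKT minus CD4SP -1.02, SE 0.62, adjusted p = 0.556, and ILCP minus CLP -0.85, SE 0.57, adjusted p = 0.357).

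The 2 *Runx2* intervals with a peak in all libraries lay apart from its promoters. The first (chr17:44776409-44778163, 37.51 kb in) covers the start site of *Supt3*, a neighbouring gene that starts inside *Runx2* and runs the other way. It ranked 3487, 2373, 2856 and 2436 in the thymic libraries, 18618, 8082 and 8948 in CLP and 14490 and 16362 in ILCP. The second (chr17:44654151-44655447, 160 kb in) is intronic with no annotated start site. It ranked 3090 and 6009 in CD4SP, 3720 and 5994 in NKT, 9193, 9600 and 10672 in CLP and 9184 and 11791 in ILCP. All 4 thymic ranks were above all 5 marrow ranks at both sites. At the *Supt3* start NKT minus CD4SP was 0.13 (SE 0.44, adjusted p = 1) and ILCP minus CLP -0.48 (SE 0.40, adjusted p = 0.48), and the latter passed without CLP replicate 1 (-0.86, adjusted p = 0.0398). At the intronic site NKT minus CD4SP was -0.13 (SE 0.39) and ILCP minus CLP -0.09 (SE 0.35), both with adjusted p = 1.

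The *Runx2* site that differed most between NKT and CD4SP lies 245.2 kb into the gene. Its sequence and that of the intron site shared by all libraries are shown on the plus strand.
Runx2 intron at 245.2 kb, chr17:44569494-44569693: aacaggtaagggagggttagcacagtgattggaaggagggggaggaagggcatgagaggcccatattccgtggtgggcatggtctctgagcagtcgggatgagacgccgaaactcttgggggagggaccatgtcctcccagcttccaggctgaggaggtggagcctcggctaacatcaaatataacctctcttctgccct
Runx2 intron at 160 kb, chr17:44654700-44654899: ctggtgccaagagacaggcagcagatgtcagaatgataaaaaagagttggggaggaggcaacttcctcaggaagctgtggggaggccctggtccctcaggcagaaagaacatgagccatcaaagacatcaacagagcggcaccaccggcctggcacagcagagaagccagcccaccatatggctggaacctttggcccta
Neither stretch holds the Runx consensus. The site at 245.2 kb (chr17:44568804-44570382) ranked 9025 and 9298 in NKT, 26933 in CD4SP replicate 2 and 24894 in ILCP replicate 2, with no peak elsewhere. NKT scored 2.18 ± 0.03 (SD, n = 2) and CD4SP 0.31 ± 0.44 (n = 2), and NKT were higher by 1.87 (SE 0.29, adjusted p = 0.00897). It missed the threshold without CD4SP replicate 1 (1.56, adjusted p = 0.0656) or NKT replicate 1 (1.85, adjusted p = 0.0525). In 12 of 17 alternatives it met the filter on libraries without NKT, and it passed in 10 of these. In the other 5, among them those that kept only the strongest peaks, it met the filter through NKT alone, so nothing is read from them. A site beside it (chr17:44566795-44567727, 247.5 kb in) ranked 26322 and 23773 in NKT and had no other peak, with a difference of 0.73 and entry to the test through NKT alone. In CLP, 2 introns at 142.1 and 150.7 kb had peaks in replicates 2 and 3 and in no other library. They entered the test through CLP alone, so no p is given.

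*Runx3* had a peak at its distal start site in all 9 libraries, and this was the only annotated start site of the 3 Runx genes at which ILCP had one. The interval (chr4:135119428-135121062), which also holds the start of the long noncoding RNA gene *Gm16225*, ranked 23352 and 14186 in CD4SP, 8861 and 5060 in NKT, 7323, 12901 and 14553 in CLP and 9976 and 11796 in ILCP. Both NKT libraries ranked above both CD4SP libraries, while ILCP ranks lay among those of CLP. As a share of each list, the ILCP peaks lay in the upper 37.89% and 45.77%, below those of CLP at 37.86%, 31.06% and 36.26%, so the order in marrow depends on the scale. NKT minus CD4SP was 1.44 (SE 0.44, adjusted p = 0.111), which did not pass in the fit or in any of 17 alternatives (0.0767 to 0.502). ILCP minus CLP was 0.04 (SE 0.40, adjusted p = 1). The proximal start (chr4:135151844-135152849, 31.69 kb in) had weaker peaks at ranks 24410 in CD4SP replicate 2, 25830 in NKT replicate 2 and 26568 and 34105 in CLP replicates 2 and 3, with none elsewhere.

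The thymic replicates of *Runx3* were far apart. CD4SP had 6 and 12 peaks in the locus and NKT 3 and 12, and 5 of 19 intervals (26.3%) had a peak in replicate 2 of both types and in neither replicate 1. That pattern was found at 0 intervals of *Runx1*, *Runx2* and *Cbfb* and at 3.32% of all intervals, and it was looked for after the *Runx3* values were seen. The 5 intervals are the one at -5.021 kb, the proximal start and those at 33.3, 34.95 and 38.28 kb. The reverse, both replicate 1 and neither replicate 2, was found at 0 intervals of the 4 loci and 0.36% of all. The replicate 2 libraries held more peaks than the replicate 1 libraries in both thymic types (37909 against 33648 and 38793 against 34701). Whether list length had a part in it was not tested.

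At 2 of 19 *Runx3* intervals (10.5%) CD4SP had peaks in both libraries and NKT had none, against 3.46% of all intervals. The reverse was found at 0 of them and 4.3% of all. The first of the 2 CD4SP intervals is shown on the plus strand.
Runx3 intron at 8.44 kb, chr4:135128993-135129192: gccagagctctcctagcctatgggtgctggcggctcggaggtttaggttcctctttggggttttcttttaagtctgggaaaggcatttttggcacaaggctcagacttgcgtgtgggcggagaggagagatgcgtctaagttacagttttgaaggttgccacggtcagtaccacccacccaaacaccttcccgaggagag
It holds no Runx consensus. The interval around it (chr4:135128580-135129605) ranked 25716 and 16819 in CD4SP and 40836 of 41535 in CLP replicate 2, with no peak in NKT or ILCP, and NKT minus CD4SP was -1.0. The second lies at -17.64 kb, ahead of the distal start (chr4:135102608-135103423), ranked 28524 and 24065 in CD4SP with no other peak, and differed by -0.66. Both entered the test through CD4SP alone, so no p is given. Behind the gene, at 61.36 kb from the distal start (chr4:135181613-135182416), a peak was called in CLP alone, at ranks 15048, 24678 and 34457. ILCP minus CLP was -0.83, and -0.51 without CLP replicate 1. It met the filter through CLP alone, so no p is given. ILCP held 3 *Runx3* intervals in all, the distal start and, in replicate 2 alone, introns at 4.218 and 16.24 kb.

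*Cbfb* had a peak in every library at the same 2 sites. The start site interval (chr8:105169845-105172074) ranked 4390 and 1871 in CD4SP, 4806 and 2741 in NKT, 3161, 3098 and 3200 in CLP and 3858 and 3291 in ILCP, which places it in the upper 4.936% to 16.34% of each list. The groups overlapped, with NKT minus CD4SP -0.34 (SE 0.46, adjusted p = 1) and ILCP minus CLP -0.18 (SE 0.42, adjusted p = 0.989). The other interval (chr8:105224399-105225832) lies behind *Cbfb* and covers the start site of *D230025D16Rik*. It ranked from 8568 to 14081, and neither difference passed (-0.15, SE 0.29, adjusted p = 1, and -0.17, SE 0.26, adjusted p = 0.811). No library had a peak within the gene body of *Cbfb* beyond its start site interval. A p that misses the threshold does not show that the types were alike at these sites.

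Between NKT and CD4SP, 3 of the 48 members tested were higher in NKT and 4 lower. A member was tested where at least 2 libraries had a peak, and 11 of 59 did not reach that. The shares of all 58536 intervals tested were 3.94% higher and 4.96% lower, so the members' counts are near the background. Of the 7 members, 6 (85.7%) had peaks in fewer than 2 libraries outside the type in which they were higher, so they met the filter only through that type and had to differ. The same was true of 62.5% of all intervals called in this comparison, and the counts are not support for a difference at these loci. The *Runx2* site at 245.2 kb was the 1 that met the filter without NKT when all peaks were used. The 3 that were higher lie at *Runx1* (1) and *Runx2* (2), and the 4 that were lower at *Runx1* (2) and *Runx3* (2). The median difference was 0 over the members and 0 over all intervals, and 8 of the 48 had no peak in either thymic type. With the 19343 strongest peaks of every library these counts were 1 and 0 of 21, against 1.775% and 2.697% of all intervals. The 1 was the same *Runx2* site, which then met the filter through NKT alone. Leaving out a CLP library gave 2 higher and 4 lower, against 3.395% to 3.979% and 4.309% to 4.832%. Leaving out a thymic library leaves 1 of its type, so those counts are not given.

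Between ILCP and CLP, 1 member was higher in ILCP and 2 lower, all at *Runx1*. Of all intervals, 12.6% were higher and 9.4% lower, so both counts are below the background share. The median difference was -0.085 over the members and 0 over all intervals, and 16 of the 48 had no peak in either marrow type. CLP replicate 1 decides the second count, for without it 11 members were lower in ILCP, 6 at *Runx1*, 3 at *Runx2* and 2 at *Runx3*, against 25.6% of all 58460 intervals, but 6 of these 11 met the filter only through CLP. With an equal number of peaks per library the count of lower members was 0, against 10.76% of all intervals. Leaving out an ILCP library leaves 1, so no count is given for it. The 2 differences, NKT minus CD4SP and ILCP minus CLP, differed from each other at 8 members against 21.9% of all intervals.

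**Figure D4:**
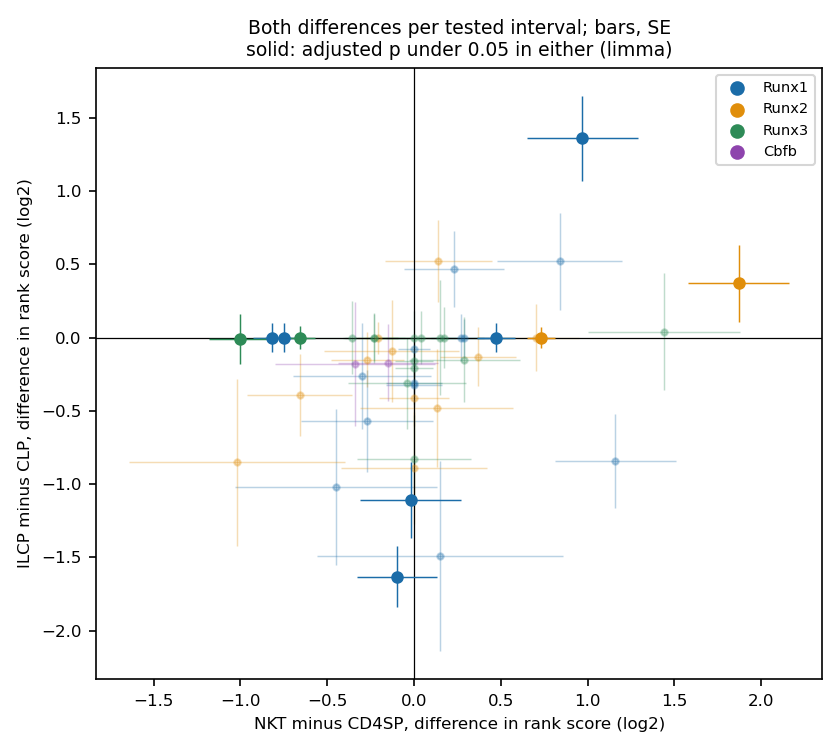
Difference in rank score between NKT and CD4SP (horizontal, log2) and between ILCP and CLP (vertical) for the 48 members tested, coloured by gene, with bars for the SE. Solid points had an adjusted p under 0.05 in either comparison, 6 of them at sites that met the filter only through the higher type. *Runx1* points lie at the top (184.9 kb) and bottom (distal start) of the marrow axis, and the *Runx2* site at 245.2 kb lies farthest to the right at 1.87.

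Counted as peaks per locus, *Runx1* had 13 in each CD4SP library, 14 in each NKT library, 3, 11 and 10 in CLP and 3 in each ILCP library. *Runx2* had 7 and 9 in CD4SP, 9 and 9 in NKT, 2, 9 and 7 in CLP and 4 and 3 in ILCP. *Runx3* had 6 and 12, 3 and 12, 2, 6 and 6, and 1 and 3 in the same order, and *Cbfb* 2 in every library but CD4SP replicate 1, which had 3. CLP replicate 1 lay at or near the ILCP numbers at all 3 Runx loci, and the other CLP libraries lay above them. Scaled to 10000 peaks of the library, *Runx1* had 3.864 and 3.429 in CD4SP, 4.034 and 3.609 in NKT, 1.551, 2.648 and 2.492 in CLP and 1.139 and 1.164 in ILCP, and all marrow libraries lay below the thymic ones. This did not hold at the other Runx loci, where CLP replicate 2 had 2.167 against 2.08 in CD4SP replicate 1 (*Runx2*), and where all CLP libraries (1.034, 1.445 and 1.495) and ILCP replicate 2 (1.164) lay above NKT replicate 1 at 0.8645 (*Runx3*). The part of list length was not tested. At *Runx1* the summed difference of the 2 comparisons on this scale was -0.903 (exact permutation p = 0.25).

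**Figure D5:**
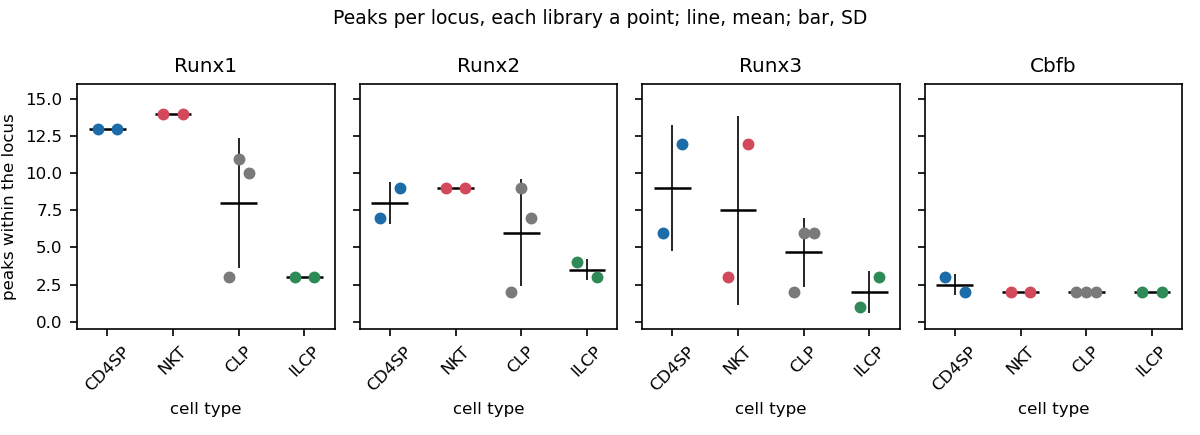
Peaks called within each locus (vertical axis), with 1 point per library by cell type, the mean as a line and the SD as a bar. *Runx1* falls from 13 or 14 in thymocytes to 3 in ILCP, *Runx3* replicates of a thymic type lie 6 or 9 peaks apart, and *Cbfb* stays at 2 or 3.

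ILCP minus CLP was -5 peaks at *Runx1* (exact permutation p = 0.4, two-sided, n = 2 and 3), -2.5 at *Runx2* (exact p = 0.5), -2.667 at *Runx3* (exact p = 0.3) and 0 at *Cbfb* (exact p = 1). NKT minus CD4SP was 1, 1, -1.5 and -0.5 (exact permutation p = 0.333, 1, 1 and 1). These designs cannot go below 0.1 in marrow and 0.333 in thymus. Summed over both organs the differences were -4, -1.5, -4.167 and -0.5 (exact permutation p = 0.4, 0.7, 0.4 and 1, against a smallest possible 0.0167), and adjusted over 17708 genes they were 0.992, 1, 0.992 and 1. The *Runx3* sum turned to 0.333 without NKT replicate 1. By this exact permutation test 0.0% of genes passed after adjustment and 645 had an exact p of 0.05 or less. By the number of peaks summed over the 9 libraries, *Runx1* (84 peaks) lay in the upper 1.269% of 21911 protein-coding genes, those without a peak included. *Runx2* (59) lay in the upper 3.542%, *Runx3* in the upper 5.509% and *Cbfb* (19) in the upper 42.0%, without regard to locus length.

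The Runx consensus was counted in the central 200 bp of every interval. At least 1 site was found in 19 of 59 members (32.2%) and in 28.5% of all 71398 intervals on the assembled chromosomes, with 9 of 21 at *Runx1*, 4 of 17 at *Runx2*, 6 of 19 at *Runx3* and 0 of 2 at *Cbfb*. A *Runx2* intron at 278.1 kb, called in ILCP replicate 1 alone, held 4 sites, and a *Runx3* intron at 10.72 kb, called in CLP replicates 2 and 3, held 3. Members were richer in GC than intervals at large (median 53.5% against 49.5%), most of all at start sites (68.2%). These are descriptions of sequence, with no test.

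The genes whose proteins work with Runx were measured in the same way, at 18 loci with 146 intervals, 126 of them tested. NKT were lower than CD4SP at 6 (4.76%, against 4.96% of all intervals) and higher at 0 (against 3.94%), where 2 had an unadjusted limma p under 0.05. ILCP were higher than CLP at 11 (8.73%, against 12.6%) and lower at 12 (9.52%, against 9.4%). Of these, 4 of the 6, 2 of the 11 and 5 of the 12 met the filter on libraries only through the type in which they were higher. Without CLP replicate 1, 51 were lower in ILCP, against 25.6% of all intervals, and 29 of these 51 met the filter only through CLP. *Ets1*, which encodes a factor that binds DNA together with Runx1, held 4 of the 6 that were lower in NKT, with 20 and 20 peaks in CD4SP and 12 and 12 in NKT. *Tle4*, a Groucho corepressor, held 4 of the 11 that were higher in ILCP and 1 of the 12 that were lower, and *Ets1* 3 and 2. Both had more peaks in CLP replicates 2 and 3 than in ILCP, with 13 and 12 against 8 and 9 at *Tle4* and 17 and 16 against 6 and 7 at *Ets1*, while CLP replicate 1 had 4 at each. *Runx1t1*, of the ETO corepressor family, had 0 peaks in each thymic library, 1, 3 and 3 in CLP and 3 and 2 in ILCP, and 2 of its 4 intervals were higher in ILCP. A start site peak was called in all 9 libraries for 10 of the 18, among them the coactivators *Ep300* and *Kat6a* and the corepressors *Tle1*, *Tle3*, *Tle4* and *Sin3a*. *Spi1*, which encodes the myeloid factor PU.1, had one in the 3 CLP libraries alone.

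The 8 genes taken as Runx targets held 61 intervals, with 49 tested. NKT were higher at 9 (18.4%, against 3.94% of all intervals), 6 at *Zbtb16* and 3 at *Cd4*, and lower at 4 (8.16%, against 4.96%), at *Zbtb7b* (2), *Il2rb* (1) and *Cd8a* (1). ILCP were higher at 10 (20.4%, against 12.6%), 7 at *Zbtb16*, 2 at *Il7r*, the receptor for interleukin 7, and 1 at *Cd4*, and lower at 0 (against 9.4%), where 1 had an unadjusted limma p under 0.05. Of these, 5 of the 9, 3 of the 4 and 3 of the 10 met the filter only through the type in which they were higher, so the shares are descriptions. Without CLP replicate 1, 2 were lower in ILCP, against 25.6% of all intervals, and 1 of these met the filter only through CLP. In number of peaks, *Zbtb16* had 3 and 3 in CD4SP and 13 and 12 in NKT, whereas *Cd4* had 9 and 9 in CD4SP and 5 and 9 in NKT, the opposite direction to its 3 calls. *Zbtb16* encodes PLZF, whose expression separates the types that the study compared.

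By the pattern of peaks over the 9 libraries, scaled to 10000 peaks, the genes most like *Runx1* were *Sh3bgrl3*, *Stambpl1* and *Mrpl33* (Pearson r 0.994, 0.990 and 0.990 over 9 libraries, among 6422 genes). *Sh3bgrl3* had 5 peaks in each thymic library, 1, 4 and 4 in CLP and 1 in each ILCP library. Those most like *Runx2* were *Arsg*, *Nrap* and *Plekhg5* (0.972, 0.971 and 0.962), and those most like *Runx3* were *Ltbp2*, *Tmem107* and *Ralgds* (0.984, 0.966 and 0.963). *Ralgds* had 4 and 9 peaks in CD4SP and 3 and 9 in NKT, so it shared the gap between thymic replicates seen at *Runx3*. The points share the list length of each library, and the correlations are descriptions. *Cbfb* had too few peaks for such a comparison.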

How the data were processed

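ATAC-seq was performed by the authors on nuclei of sorted cells, in 9 libraries. The authors mapped the reads (50 bp) to mm10 with bowtie, with up to 2 mismatches per read, and called peaks with MACS. The submitters' processing notes also name Picard and HOMER. The MACS version and settings, the removal of duplicates and any shift of read ends for the transposase are not given in the sources used here. The authors deposited 1 peak list per library, without pooling replicates, with a score from the peak caller for each peak. The study's methods give a range of reads over its libraries, but the depth of each library is not in the peak lists, so no counting interval could be given. The Runx1 ChIP library and its input were not analysed here.

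Groups and replicates came from the sample labels. Peaks sharing at least 1 bp were merged, and the rank score was log2 of 41536 over the rank of the best peak, 0 without a peak. Intervals with a peak in at least 2 libraries were fitted with limma 3.58.1 (R 4.3.3, eBayes with trend, cell type as the only term, all 9 libraries, 5 residual degrees of freedom), with Benjamini-Hochberg adjustment over all of them and a threshold of 0.05. Peaks per locus were compared by exact two-sided permutation of labels within an organ (60 arrangements). Loci came from GENCODE M21 and sequence from GRCm38.p6, read with pysam 0.24.0 in Python 3.11.15. Simulated data with known answers were used to test the fit and the motif search. The simulated scores had even noise, with changes added at strong sites only. Sites with peaks in some types and none in others were not simulated, so the fit was not tested on them. A gene had a start site peak when a peak lay within 250 bp of it. Named intervals were those over a start site, those with a peak in all 9 libraries and, per gene and comparison, up to 3 past the threshold with the largest difference, and others named here were chosen after their values were seen. *Tle5* was matched as *Aes*, and intervals shared by its locus and that of *Tle2* were counted once. The result for 1 marker gene is not reported here. The members and lists were chosen with earlier results of these data known. The alternatives were other peak numbers, scales, filters, locus limits, overlaps, a replicate block and each library left out. The study's methods call the replicates biological.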

Additional observations from a re-analysis of the deposited data

Results flagged for a closer look

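At 8 of the 48 members tested, the difference between NKT and CD4SP differed from that between ILCP and CLP by the interaction term of the limma fit, against 21.9% of all intervals. At *Runx1* the term was 2.0 (SE 0.47, adjusted p = 0.0223) at 205.1 kb (92620451-92621696), where NKT had peaks and CD4SP none while ILCP had a peak in 1 of 2 libraries and CLP in 3 of 3. It was 1.53 (SE 0.32, adjusted p = 0.0131) at the distal start (92825004-92826864), where both thymic types and CLP had peaks and ILCP none. At the CD4SP sites at 15.04 kb (92810629-92811600) and 11.41 kb (92814277-92815206) it was -0.75 and -0.82, and no marrow library had a peak at either. At *Runx2* it was 1.5 (SE 0.39, adjusted p = 0.0323) at 245.2 kb (44568804-44570382), where NKT ranked highest, and 0.73 at 247.5 kb (44566795-44567727), called in NKT alone. At *Runx3* it was -0.66 at the site ahead of the gene (135102608-135103423) and -0.99 at 8.44 kb (135128580-135129605). At 4 of the 8 no marrow library had a peak, so the term there equals the thymic difference. Those 4 and the *Runx3* site at 8.44 kb met the filter on libraries only through the type in which they were higher, and no p is given for them.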

How the results depend on the processing

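The numbers of members past the threshold (3 higher and 4 lower in NKT, 1 higher and 2 lower in ILCP, 8 for the difference of the differences) depended on the peaks kept. With an equal number of the strongest peaks they were 1, 0, 0, 0 and 1, against 1.775%, 2.697%, 14.53%, 10.76% and 19.49% of all intervals. With the upper 50% of each list they were also 1, 0, 0, 0 and 1, against 2.408%, 3.35%, 11.54%, 7.459% and 17.52%. In both settings 21 members were left to test. The 1 was in each case the *Runx2* site at 245.2 kb, which then met the filter through NKT alone and had to differ. By limma at an unadjusted p under 0.05, the counts that fell to 0 were 1, 0 and 2 with an equal number and 1, 0 and 0 with the upper 50%. On the log2 score 2 were lower in NKT, 0 higher and 0 lower in ILCP (0 and 2 unadjusted) and 3 differed in the last test. The shares of all intervals were 4.438%, 6.237%, 5.016% and 10.58%. As percentile ranks these counts were 2, 0 (1 unadjusted), 1 and 5, against 4.132%, 8.039%, 7.746% and 15.82% of all intervals. When a peak had to cover 50% of the interval, 0 were lower in ILCP (2 unadjusted), against 7.307% of all intervals. Leaving out a CLP library gave 2 higher and 4 lower in NKT, against 3.395% to 3.979% and 4.309% to 4.832% of all intervals. In ILCP it gave 1 higher and 2 to 11 lower, against 13.48% to 14.24% and 9.913% to 25.56%. The last test gave 6 to 14, against 22.07% to 37.22%. The 11 and 14 were found without CLP replicate 1. Leaving out a library of another type left 1 of that type, so those counts are not given. Where 1 library of a type is left, it is assumed to vary like the other groups.

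The labels give the cell types shared replicate numbers but no shared animal or day. Deviations from the group mean correlated at 0.52 for CD4SP and NKT replicate 1, so the thymic libraries shared part of their difference between replicates. For CLP and ILCP replicates 1 and 2 the values were -0.0309 and -0.0285. The main fit held no replicate term, so its thymic p leave that shared part out. With a replicate block the last count was 4, against 15.6% of all intervals. The others were 2, 3, 1 and 2, against 1.635%, 1.99%, 11.14% and 8.161%.

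The summed difference in *Runx3* peaks, -4.167, was 0.1667 with an equal number of peaks, 0.5 with the upper 50% and from -8.667 to 0.3333 with 1 library left out, turning positive without NKT replicate 1. None of these passed the threshold. No difference that changed sign had passed in the same comparison. At the *Runx3* distal start, ILCP minus CLP was -0.7 on the log2 score, -0.06771 as percentile rank and -0.16 with the replicate block, and from -0.16 to 0.34 with 1 library left out. At the *Supt3* start NKT minus CD4SP was -0.16 on the log2 score and from -0.15 to 0.4 with 1 library left out. Over the libraries left out, NKT minus CD4SP ran from -0.34 to 0.13 at the *Runx1* distal start, from -0.61 to 0.35 at the *Runx2* intron of all libraries, from -0.42 to 0.34 at the *Runx3* proximal start, from -0.96 to 0.27 at the *Cbfb* start and from -0.37 to 0.08 behind *Cbfb*. ILCP minus CLP ran from -0.27 to 0.09 at that *Runx2* intron and from -0.38 to 0.03 behind *Cbfb*. Of the other values of named intervals, 376 kept their direction and side of the threshold, 37 lost the threshold and 2 passed it. The cause was not tested. The unknown depth of each library limits every statement on a missing peak.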
